A study of Mus musculus with 16 samples.

Results

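The inflammatory cytokines interleukin-1 beta (Il1b), tumour necrosis factor (Tnf), interleukin-6 (Il6), the interleukin-1 receptor antagonist (Il1rn) and the interleukins Il10, Il18, Il33 and Il15, together with the inflammasome genes Nlrp3 and Casp1, were followed in brown adipose tissue (BAT) and gonadal white adipose tissue (gWAT) of mice that lack the glycolytic enzyme Pgam1 in adipocytes. These 10 genes, of 22911 with a named probe, were found by matching the RefSeq accession of each probe to their symbols, which gave 16 probes. Each gene is described by its brightest probe over the 16 arrays. The mice were male, of the strain C57BL/6NCrSlc per the labels. Adipo-Pgam1 KO mice carried Adipoq-Cre and Pgam1 flox/flox alleles and were compared with littermate controls labelled wild-type, with 4 arrays per tissue and genotype. The study's methods give these controls as Pgam1 flox/flox without Adipoq-Cre. The labelled age was 16 weeks for all but 2 arrays, since replicate 4 of Adipo-Pgam1 KO was labelled 14 weeks in BAT and in gWAT alike. Cre was driven by the adiponectin promoter, which is active in adipocytes, whereas the arrays read the RNA of the whole tissue, with its macrophages, mast cells and stromal cells. The labels do not say whether the BAT and gWAT arrays came from the same mice, and the p-values measure the spread between these samples.

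All levels are log2 intensities relative to the 75th percentile of each array, so a level of 0 lies at that percentile, and a difference of 1 is a 2-fold difference. Whether a probe stood well above the local background was read from the scanner's own flag, which was set before this scaling. The 75th percentile itself was 401.3 to 451.3 intensity units in BAT controls and 650.2 to 916.2 in BAT of Adipo-Pgam1 KO mice. Detection in BAT thus compares dimmer control arrays with brighter Adipo-Pgam1 KO arrays. Pgam1, the targeted gene, served as a check of the labels. In BAT, its level was 7.94, 7.93, 8.07 and 7.82 in the control arrays and 6.20, 6.13, 6.03 and 6.43 in the Adipo-Pgam1 KO arrays, a log2 difference of -1.74 (limma, adjusted p = 1.11e-05). In gWAT, it went against the label, with 5.07, 5.15, 5.67 and 5.56 in controls and 6.50, 6.42, 6.38 and 5.95 in the arrays labelled Adipo-Pgam1 KO, a difference of 0.95 (limma, adjusted p = 0.0139). The other Pgam1 probe, A_55_P2727354, moved like the brighter one in each tissue. In BAT, it read 6.49 to 6.64 in controls and 4.80 to 5.05 in the Adipo-Pgam1 KO arrays. In gWAT, it read 3.66 to 4.23 in controls and 4.56 to 5.14 in the arrays labelled Adipo-Pgam1 KO. The position of these probes relative to the deletion was not tested. Of 6 marker genes of brown adipocytes, 4 were tested in gWAT and 3 were higher by label. The log2 differences were 4.23 for Cpt1b, which carries fatty acids into mitochondria (limma, adjusted p = 0.00103), 3.41 for Cidea, a lipid droplet protein (limma, adjusted p = 0.00126), and 4.35 for Elovl3 (limma, adjusted p = 0.0219). Ppargc1a, at -0.52, did not pass (limma, adjusted p = 0.365), and Ucp1 and Dio2 were not tested. Each direction given for gWAT is by the label of the arrays.

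Interleukin-1 beta and interleukin-18 are made as inactive precursors. A sensor such as Nlrp3 assembles with the adaptor Pycard (ASC) into an inflammasome, which activates caspase-1 (Casp1), and this protease cuts both precursors into their secreted forms. Il1rn occupies the interleukin-1 receptor without signalling, Il33 is an alarmin held in the nuclei of stromal cells, and Il10 restrains activated macrophages. Tnf and Il6 are the classical cytokines of inflamed fat, and Il15 sustains natural killer cells and memory T cells. Their genes are commonly switched on through the transcription factors NF-kB, AP-1 and C/EBP.

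Promoter sequences are shown for Casp1, Il18, Il1rn and Il33, whose transcripts separated the BAT groups, and for Il6, whose window held the most motifs. Where a gene had several windows, the one with a motif is shown. The windows, from RefSeq on GRCm38.p6, span 250 bases before to 50 bases after a start site, and 8 of the 10 genes had 12 windows in all. They were searched on both strands for kappa B, AP-1 (TGANTCA, which reads alike on both strands), C/EBP (TTGCNNAA) and the interferon element ISRE, and capitals mark a match. No match overlapped another motif. The stretches lie on the plus strand at chr5:30012864-30013113 for Il6, chr2:24336710-24336859 for Il1rn, chr19:29945640-29945789 for Il33, chr9:5298367-5298516 for Casp1 and chr9:50554550-50554699 for Il18, each ending at the base before the start site.
Il6: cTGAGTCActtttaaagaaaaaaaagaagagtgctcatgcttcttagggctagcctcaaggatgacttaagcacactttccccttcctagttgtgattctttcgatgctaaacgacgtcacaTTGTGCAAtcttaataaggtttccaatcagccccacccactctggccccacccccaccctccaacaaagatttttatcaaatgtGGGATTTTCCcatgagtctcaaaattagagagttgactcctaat
Il1rn: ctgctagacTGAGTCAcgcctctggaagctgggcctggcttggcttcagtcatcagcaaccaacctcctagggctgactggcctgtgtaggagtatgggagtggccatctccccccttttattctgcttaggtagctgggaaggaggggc
Il33: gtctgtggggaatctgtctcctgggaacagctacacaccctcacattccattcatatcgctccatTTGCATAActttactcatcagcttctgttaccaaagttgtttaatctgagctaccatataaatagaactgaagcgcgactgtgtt
Casp1: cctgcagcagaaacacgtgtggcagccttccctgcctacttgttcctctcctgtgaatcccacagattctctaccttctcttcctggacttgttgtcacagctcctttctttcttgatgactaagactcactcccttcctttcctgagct
Il18: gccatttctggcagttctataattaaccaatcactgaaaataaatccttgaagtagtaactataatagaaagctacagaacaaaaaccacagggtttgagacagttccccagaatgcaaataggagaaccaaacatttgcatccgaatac
In the Il6 promoter, the capitals are an AP-1 motif at -249 to -243, a C/EBP motif at -128 to -121 and a kappa B motif at -44 to -35 from the start site. In the first Il1rn window, they are an AP-1 motif at -141 to -135, and in the second Il33 window a C/EBP motif at -85 to -78. The windows of Casp1 and Il18 held none of the 4 motifs. Outside the printed stretches, 1 Nlrp3 window held a kappa B motif at -186 to -177. Of all 32851 windows, 4.51% held kappa B, 7.81% AP-1, 10.8% C/EBP and 3.44% ISRE. These matches describe the letters and are not shown to be bound.

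In BAT, 5 of the 10 genes rose in Adipo-Pgam1 KO mice, namely Casp1, Il18, Il33, Il1rn and Il10, and none fell. In each of these 5, every Adipo-Pgam1 KO array lay above every control array. Il10 was tested only because the Adipo-Pgam1 KO arrays detected it, whereas the other 4 were well above background on all 8 BAT arrays. Il6 was detected on 3 of 4 Adipo-Pgam1 KO arrays and on no control array, Il1b and Il15 did not pass the test, Tnf depended on the probe, and Nlrp3 was not well above background on any of the 16 arrays. The threshold was an adjusted p of 0.05 in limma, and 8 of the 10 genes had enough signal to be tested. Of all 14280 genes tested in BAT, 61.5% were past that threshold, with 27.5% higher and 34.0% lower, and in 25.1% every Adipo-Pgam1 KO array lay above every control. The median log2 difference of the 8 genes was 2.46, or 2.10 with Il10 at its lower bound, beside -0.08 for all genes. In whole tissue, more cells of a type and more RNA per cell cannot be told apart.

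**Figure D1:**
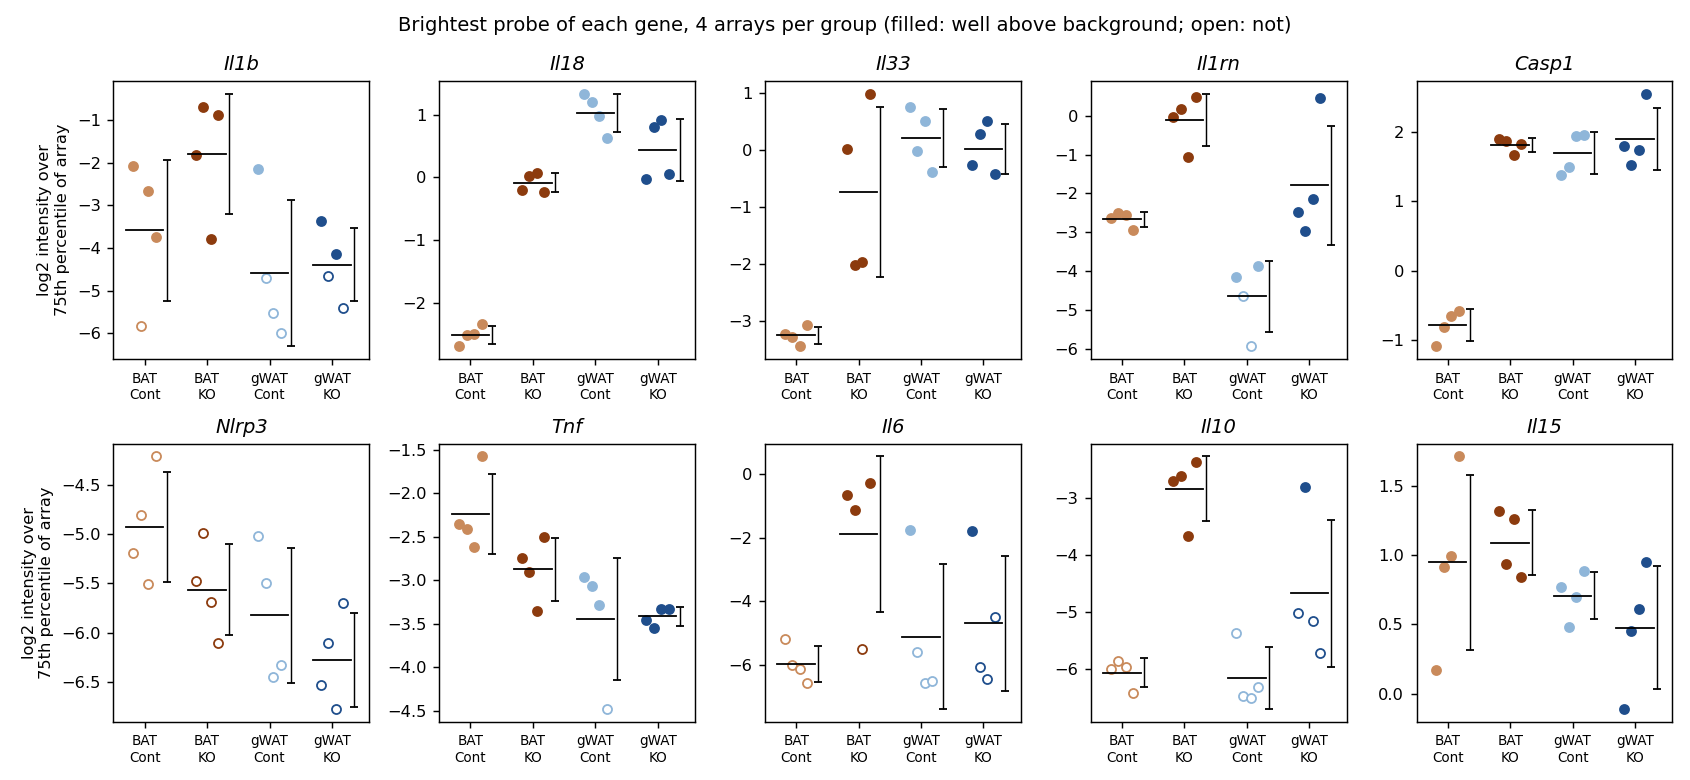
Log2 intensity over the 75th percentile of the array (vertical axis, its own range in each panel) for the brightest probe of each gene, with 1 point per array and 4 arrays per group. Horizontal bars are group means and vertical bars are 1 SD, and open points were not well above background, as in all 16 arrays of Nlrp3. Casp1 and Il18 show tight groups that separate in BAT, whereas 1 Adipo-Pgam1 KO array at -5.50 stands apart from the other 3 for Il6.

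Casp1, the inflammasome protease, varied little within each BAT group. Its level was -1.10, -0.81, -0.66 and -0.59 in the BAT control arrays and 1.89, 1.87, 1.67 and 1.83 in the Adipo-Pgam1 KO arrays. All 4 control arrays lay below the 75th percentile and all 4 Adipo-Pgam1 KO arrays above it, with no overlap. The log2 difference was 2.60 (SE 0.13, limma, adjusted p = 4.03e-06), a 6.07-fold rise. On the slide that carried the 4 Adipo-Pgam1 KO arrays and a single control, the difference was 2.40 (SE 0.19, limma with the slide as a block, adjusted p = 2.36e-04).

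Il18, a substrate of caspase-1, moved by a similar amount. The BAT control arrays stood at -2.69, -2.50, -2.48 and -2.33, and the Adipo-Pgam1 KO arrays at -0.20, 0.03, 0.07 and -0.23. The groups lay far apart, and within each of them the arrays were close together. The log2 difference was 2.42 (SE 0.12, limma, adjusted p = 3.65e-06), a 5.35-fold rise, and with the slide as a block it was 2.25 (SE 0.17, adjusted p = 2.30e-04).

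Il1rn, the natural inhibitor of the interleukin-1 receptor, rose as well. Its level was -2.65, -2.52, -2.56 and -2.95 in BAT controls and -0.03, 0.17, -1.07 and 0.49 in Adipo-Pgam1 KO mice. Replicate 3 was the lowest of the Adipo-Pgam1 KO arrays but still lay above every control. The log2 difference was 2.56 (SE 0.30, limma, adjusted p = 1.39e-04), a 5.89-fold rise, and 2.84 (SE 0.49, adjusted p = 0.00337) with the slide as a block. The other Il1rn probe, A_55_P1962400, was not well above background on any BAT control array and was so on all 4 Adipo-Pgam1 KO arrays, which gives a rise of at least 1.20-fold (limma, adjusted p = 8.53e-04).

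Il33, the alarmin read by the receptor Il1rl1 (ST2), split the Adipo-Pgam1 KO arrays into pairs. The BAT controls stood at -3.22, -3.26, -3.44 and -3.07, while the Adipo-Pgam1 KO arrays stood at 0.02, -2.01, -1.96 and 0.98. Replicates 1 and 4 reached the range of gWAT, and replicates 2 and 3 lay between the control and gWAT ranges. The log2 difference was 2.51 (SE 0.63, limma, adjusted p = 0.00777), a 5.69-fold rise. With the slide as a block it was 2.33 (SE 1.06) and did not pass (adjusted p = 0.107). The other probe, A_55_P2614900, gave 1.88 on the log2 scale (SE 0.55, limma, adjusted p = 0.0153), and since it was not well above background in any BAT control, its bound was an at least 1.42-fold rise.

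Il10, the anti-inflammatory cytokine, went from not detected to detected. No BAT control array was well above background, with values of -6.01, -5.86, -5.96 and -6.42. All 4 Adipo-Pgam1 KO arrays were, at -2.71, -2.62, -3.67 and -2.38. The rise was at least 2.18-fold (limma, adjusted p = 2.72e-05), where the control level is replaced by the lowest signal that was well above background on each control array. The p compares detected arrays with arrays at background. Under normexp background correction, the log2 difference shrank to 0.40 and did not pass (adjusted p = 0.0742).

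Il6 behaved like Il10 on 3 arrays. In BAT controls, it was not well above background on any array, at -5.18, -5.99, -6.10 and -6.55. In Adipo-Pgam1 KO mice it was -0.65, -1.12, -5.50 and -0.28, and replicate 3 was not well above background. The bound over all 4 arrays was an at least 4.21-fold rise, but the groups overlapped at replicate 3 (two-sided exact permutation test of the difference of means, p = 0.0571, where 0.0286 is the smallest p that 4 arrays against 4 allow). Because no group had all 4 arrays above background, Il6 was not tested in limma unless the filter on dim probes was dropped (adjusted p = 0.0168). The other probe, A_55_P2733612, was also detected on the same number of Adipo-Pgam1 KO arrays, 3, and on 0 control arrays, for an at least 2.13-fold rise.

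Il1b, the cytokine cut by caspase-1, varied too widely within each group to separate them. The BAT controls stood at -2.09, -5.83, -2.66 and -3.75, of which replicate 2 was not well above background. The Adipo-Pgam1 KO arrays stood at -1.82, -0.70, -3.79 and -0.89, and replicate 3 lay inside the control range. The log2 difference was 1.78 (95% interval -0.29 to 3.86, limma, adjusted p = 0.118). It passed without Adipo-Pgam1 KO replicate 3, at 2.45 (adjusted p = 0.0362), and under scaling by the spike-in controls, at 2.33 (adjusted p = 0.0394).

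The probes of Tnf went in opposite directions in BAT. The brighter probe, A_55_P2740937, was -2.35, -2.41, -2.61 and -1.58 in controls and -2.74, -2.90, -3.35 and -2.51 in Adipo-Pgam1 KO mice, a log2 difference of -0.64 (SE 0.25, limma, adjusted p = 0.0547). The dimmer probe, A_51_P385099, was not well above background on any control array, at -3.99, -5.99, -6.10 and -6.60, and was so on all 4 Adipo-Pgam1 KO arrays, at -2.84, -3.27, -4.09 and -2.42. For the dimmer probe the rise was at least 1.75-fold (limma, adjusted p = 0.00469), although Adipo-Pgam1 KO replicate 3 overlapped the highest control. With the mean of both probes the log2 difference was 0.94 (limma, adjusted p = 0.0324), so no direction is given for Tnf in BAT.

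**Figure D2:**
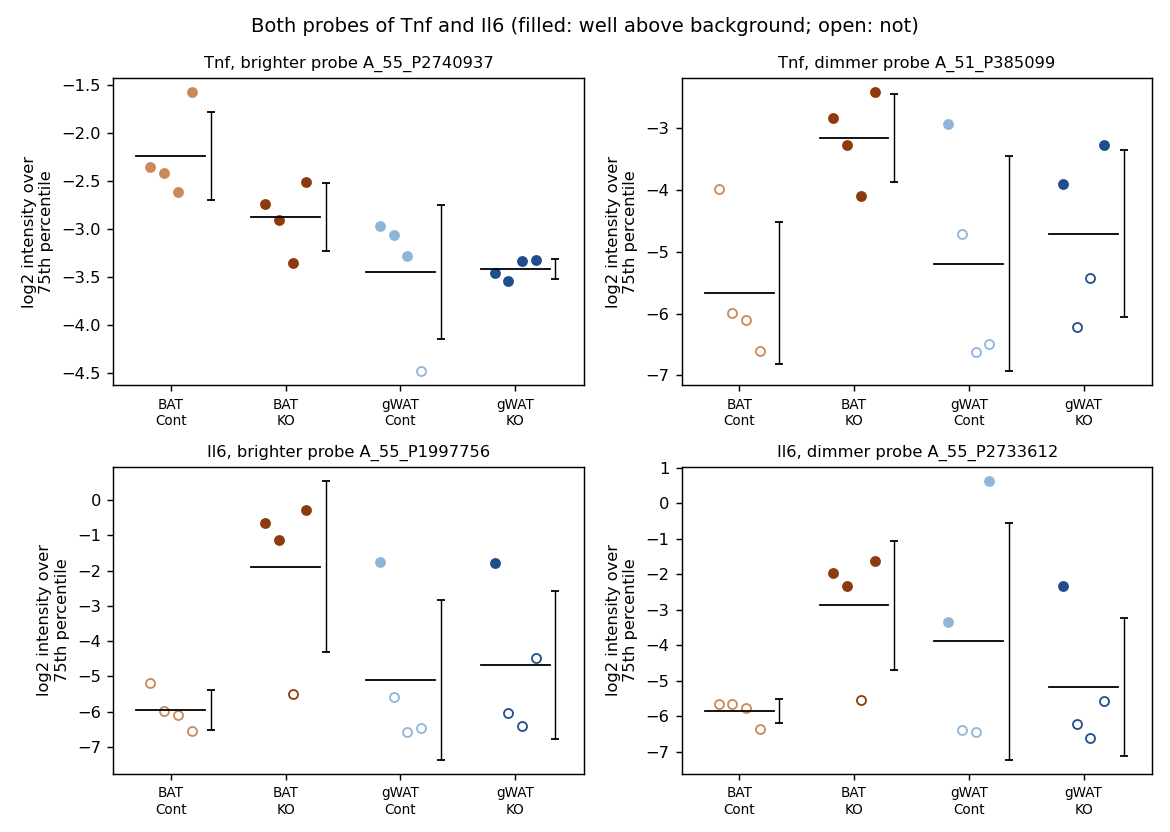
Log2 intensity over the 75th percentile of the array (vertical axis, its own range in each panel) for the brighter (left) and dimmer (right) probes of Tnf (top) and Il6 (bottom), with 1 point per array, group means, 1 SD bars and open points where the probe was not well above background. The Tnf probes move in opposite directions between the BAT groups, with log2 differences of -0.64 and 2.52, whereas both Il6 probes are detected on 3 of 4 BAT arrays of Adipo-Pgam1 KO mice.

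Il15, which supports natural killer cells, was well above background on all BAT arrays and did not pass the test. Its level ran from 0.17 to 1.71 over the 4 control arrays, and was 1.32, 0.93, 1.26 and 0.85 in Adipo-Pgam1 KO mice. The Adipo-Pgam1 KO arrays lay inside the control range, and the log2 difference was 0.14 with a 95% interval from -0.52 to 0.81 (limma, adjusted p = 0.692). Its sign turned under several alternatives. Nlrp3, the inflammasome sensor, gave no level to compare, as its only probe was not well above background on any array.

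The BAT arrays of Adipo-Pgam1 KO mice were not equally high in these genes. Replicate 3 was the lowest of its group for 6 of the 10 genes, which were Il1b, Tnf, Il6, Il1rn, Il10 and Casp1. Replicate 4, from the younger mouse, was the highest for 5, which were Tnf, Il6, Il1rn, Il10 and Il33. Tnf is read here by its brighter probe. The shares of all genes that were lowest or highest on these arrays were not counted. Replicate 3 had summed levels of 111 for the macrophage markers, 22.5 for the mast cell markers and 624 for the adipocyte markers, and replicate 4 had 80.1, 16.9 and 865. The adipocyte sum of replicate 3 was the lowest of its group and that of replicate 4 the highest. The part of these sums in the order of the arrays was not tested.

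Marker genes of macrophages, mast cells and fibroblasts also rose in BAT, those of adipocytes fell, and their part in the results was not tested. Of 8 macrophage markers, 6 rose, and their summed intensity over the 75th percentile was 26.7 to 36.5 in controls and 80.1 to 119 in Adipo-Pgam1 KO mice. All 5 mast cell markers rose, from a sum of 2.08 to 2.82 in controls to 8.50 to 22.5. Of the 5 dendritic cell markers, 4 were tested, of which 3 rose and 1 fell, while Xcr1 was not well above background in either BAT group. Of 6 fibroblast and progenitor markers, 4 rose, with sums of 23.1 to 37.6 in controls and 52.9 to 81.6. All 6 adipocyte markers fell, from 1740 to 2110 in controls to 624 to 865, and 5 of 6 brown adipocyte markers fell, from 2370 to 2530 to 886 to 1390. Of the 5 neutrophil markers tested, 1 rose and 1 fell, namely Mpo with a log2 difference of 0.71 and Csf3r with -0.57. S100a8 (1.15), S100a9 (0.75) and Elane (-0.49) did not pass, and Cxcr2 was not well above background on any array. The neutrophil sums were 116 to 146 in controls and 87.5 to 95.2 in Adipo-Pgam1 KO mice, but a linear sum mostly follows its brightest genes. None of the 4 endothelial markers passed. In BAT, the skeletal muscle markers summed to 0.389 to 1.07 in controls and 0.846 to 76.0 in Adipo-Pgam1 KO mice.

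**Figure D3:**
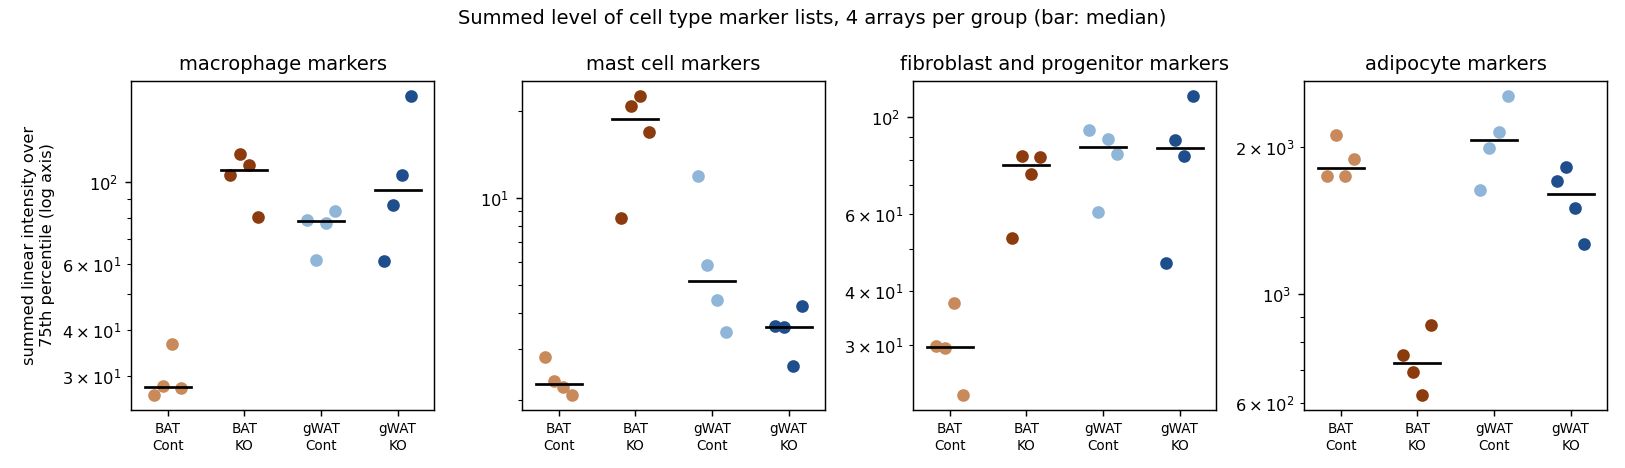
Sum of the linear intensities of each marker list over the 75th percentile of the array (vertical axis, log scale), with 1 point per array and the median of each group as a bar. In BAT, the macrophage, mast cell and fibroblast sums of all 4 Adipo-Pgam1 KO arrays lie above those of the controls, and the adipocyte sums (624 to 865) lie below those of the controls (1740 to 2110).

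Among 84 other genes of the same pathways in 4 lists, 60 were tested in BAT, of which 36 rose and 7 fell. That is 71.7% past the threshold, beside 61.5% of all genes tested, and some of these genes were not detected in controls. Of the 16 genes for the cytokines' receptors and binding proteins, 15 were tested, 10 rose and 1 fell, with a median log2 difference of 1.23, or a 2.15-fold rise with undetected controls at their bound. The Il10 receptor Il10ra rose by 2.65 on the log2 scale (SE 0.36, limma, adjusted p = 2.84e-04), and Il15ra, which presents Il15 to other cells, was the gene that fell, with -1.34 (SE 0.18, limma, adjusted p = 2.96e-04). The Il33 receptor Il1rl1 rose by 2.58 (SE 0.25, limma, adjusted p = 4.73e-05) and the Tnf receptor Tnfrsf1b by 2.36 (SE 0.18, limma, adjusted p = 1.92e-05). Il18r1, the Il18 receptor, was not well above background on any control array and rose at least 1.63-fold (limma, adjusted p = 9.52e-04), and Il18bp, the decoy that neutralizes Il18, had a difference of 0.38 that did not pass (adjusted p = 0.182).

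In the inflammasome list, 13 of 16 genes were tested, 10 rose and 2 fell, with a median log2 difference of 1.82, or 1.33 with undetected controls at their bound. Casp4, the caspase of the non-canonical inflammasome, rose most among the genes measured in both groups, by 3.65 on the log2 scale (SE 0.35, limma, adjusted p = 5.14e-05). Its control arrays reached from -0.94 to 0.77, and its Adipo-Pgam1 KO arrays from 2.95 to 3.47. The adaptor Pycard rose by 1.82 (SE 0.20, limma, adjusted p = 9.34e-05), and Gsdmd, the pore former that lets mature cytokine out of the cell, by 1.33 (SE 0.11, limma, adjusted p = 2.63e-05). The ATP receptor P2rx7 and the channel Panx1 rose by 2.27 (limma, adjusted p = 1.24e-04) and 2.62 (limma, adjusted p = 1.90e-05). The sensors Aim2, Nlrc4 and Mefv (pyrin) were not well above background on any control array and rose at least 3.11-fold, 1.88-fold and 7.52-fold. The sensor Nlrp1a fell by 0.96 (limma, adjusted p = 5.96e-04) and Nek7, which binds Nlrp3, fell by 0.30 (limma, adjusted p = 0.0217).

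Of the 25 NF-kB and signal transducer genes, 24 were tested, 11 rose and 3 fell, with a median of 0.28. Socs3, the feedback inhibitor of Il6 signalling, rose by 2.35 on the log2 scale (SE 0.74, limma, adjusted p = 0.0222), although its groups overlapped, with controls up to 1.91 and an Adipo-Pgam1 KO array at 0.61. The NF-kB inhibitor Nfkbie rose by 1.66 (limma, adjusted p = 2.69e-04) and Tnfaip3 (A20), another brake, by 1.14 (limma, adjusted p = 0.00263), whereas the kinase Irak1 fell by 0.65 (limma, adjusted p = 3.82e-04). Of 27 further cytokines, 8 could be tested, 5 rose and 1 fell. Csf1, the macrophage growth factor, rose by 2.82 (SE 0.40, limma, adjusted p = 3.41e-04), and Osm, a relative of Il6, rose at least 4.40-fold (limma, adjusted p = 4.36e-04). Il34, the alternative ligand of the Csf1 receptor, fell by 0.59 (limma, adjusted p = 0.00445). Besides the genes with the highest and lowest changes, the genes named from these lists were chosen after their values were seen.

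**Figure D4:**
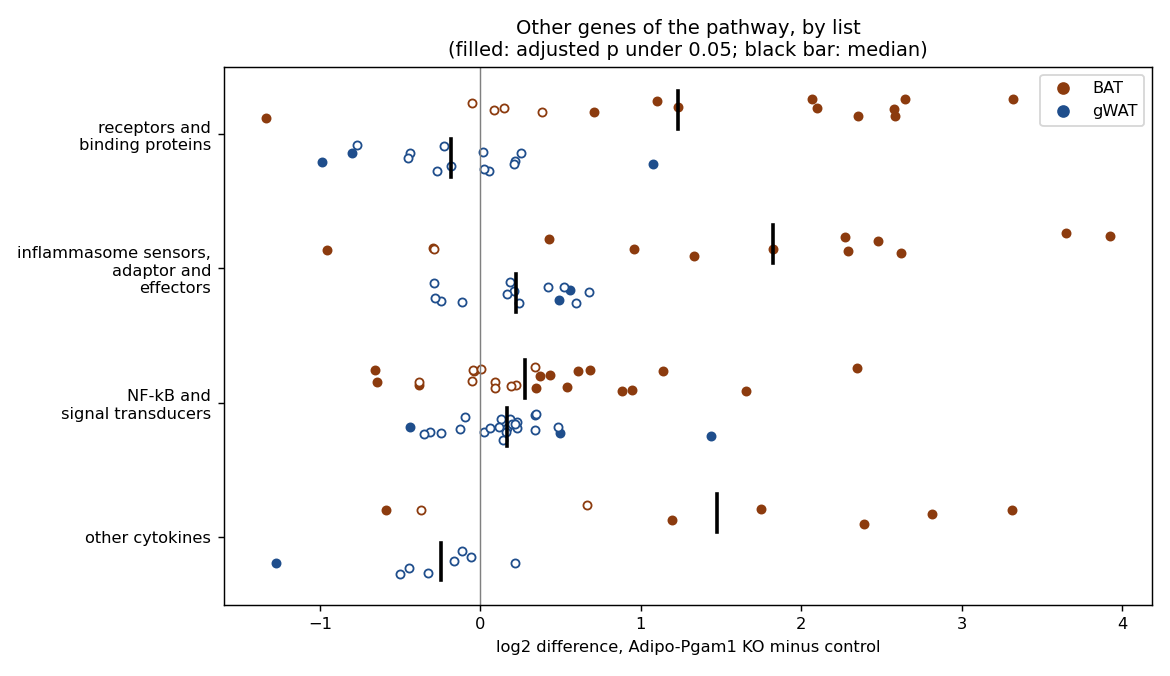
Log2 difference between Adipo-Pgam1 KO mice and controls (horizontal axis) for each tested gene of the 4 lists, in BAT and in gWAT arrays by label, with filled points for an adjusted p under 0.05 and black bars for medians. Values of genes undetected in controls are fitted differences and not bounds. In the inflammasome list the median is 1.82 in BAT and 0.22 in gWAT.

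In gWAT, Il1rn was the only one of the 10 genes past the threshold, with more signal in the arrays labelled Adipo-Pgam1 KO. Casp1, Il18, Il33, Il15 and Tnf were tested and did not pass, Il1b, Il6 and Il10 were detected on at most 2 arrays of each group, and Nlrp3 was not detected. Of all 14149 genes tested in gWAT, 17.8% were past the threshold, 9.99% higher and 7.85% lower, and in 13.3% every array labelled Adipo-Pgam1 KO lay above every control. The median log2 difference of the 6 genes tested was -0.08, beside 0.05 for all genes.

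Il1rn, the receptor antagonist, was dim in gWAT controls, at -4.15, -4.66, -5.94 and -3.86, where only replicates 1 and 4 were well above background. In the arrays labelled Adipo-Pgam1 KO it stood at -2.48, -2.98, -2.15 and 0.45, all well above background, and through these arrays alone it passed the filter. Under the stricter filter it was not tested. The other Il1rn probe, A_55_P1962400, was well above background on 1 array labelled Adipo-Pgam1 KO and on 0 control arrays. Its groups overlapped (two-sided exact permutation test, p = 0.0571). Its bound, with undetected controls at their detection limit, was -0.06 on the log2 scale, which neither shows nor excludes a rise. For the brighter probe the groups did not overlap, and replicate 4, labelled 14 weeks, was far above the other 3. The log2 difference was 2.86 (SE 0.75, limma, adjusted p = 0.0331), and 2.11 (adjusted p = 0.0222) without that replicate. The call was lost when any of control replicates 1, 2 or 3 or replicates 1 or 3 labelled Adipo-Pgam1 KO was left out (adjusted p up to 0.0753), and with the slide as a block, which rests on a single control, the difference was 2.07 (SE 1.20, adjusted p = 0.419).

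Il18 showed the lowest difference of the genes tested in gWAT. Its level was 1.32, 1.19, 0.97 and 0.62 in controls and -0.03, 0.80, 0.92 and 0.06 in the arrays labelled Adipo-Pgam1 KO. Replicates 1 and 4 labelled Adipo-Pgam1 KO lay below every control, and the other 2 overlapped them. The log2 difference of -0.59 (SE 0.26) did not pass in limma (adjusted p = 0.143), but did when all 16 arrays shared 1 estimate of the spread (adjusted p = 0.0465).

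Casp1 was high in both gWAT groups, with 1.38, 1.50, 1.94 and 1.96 in controls and 1.80, 1.52, 1.74 and 2.55 in the arrays labelled Adipo-Pgam1 KO. The groups overlapped, and the log2 difference was 0.21 (95% interval -0.35 to 0.76, limma, adjusted p = 0.582). Il33 stood at 0.75, -0.02, 0.50 and -0.39 in controls and at -0.27, 0.27, 0.50 and -0.42 in the arrays labelled Adipo-Pgam1 KO, a difference of -0.19 (95% interval -0.86 to 0.48, limma, adjusted p = 0.691). Both groups of Il33 covered nearly the same range. For Il15, the difference was -0.23 (95% interval -0.73 to 0.27, limma, adjusted p = 0.495), and for the brighter probe of Tnf it was 0.03 (95% interval -0.67 to 0.73, limma, adjusted p = 0.956). None of these intervals excludes 0, and none shows that the genotypes were alike.

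The remaining genes were mostly below detection in gWAT. Il6 was well above background on 1 control array, replicate 1 at -1.77, and on 1 array labelled Adipo-Pgam1 KO, replicate 1 at -1.79, while the other arrays lay between -6.57 and -4.49. Its dimmer probe read 0.62 on control replicate 4, where the brighter probe read -6.48 and was not well above background, so the Il6 probes disagreed on that array. Il1b was detected on control replicate 1 at -2.15 and on replicates 1 and 3 labelled Adipo-Pgam1 KO at -3.37 and -4.13. Il10 was detected only on replicate 2 labelled Adipo-Pgam1 KO, at -2.80. Of these 3 cytokines, none was detected on more than 2 arrays of a gWAT group. Control replicate 1 was the highest of its group for 7 of the 10 genes. These include Il10 and Nlrp3, which were below detection on every control array. The share of all genes that were highest on that array was not counted.

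Of the macrophage markers, 1 of 8 rose in gWAT, which was Cd68 with a log2 difference of 1.48 (limma, adjusted p = 0.0365). The macrophage sums were 61.4 to 83.2 in controls and 61.1 to 170 in the arrays labelled Adipo-Pgam1 KO. The highest sum was that of replicate 4, the array with the highest Il1rn. The lowest, 61.1, was that of replicate 1, whose Il1rn of -2.48 still lay above every control. Replicate 2, with the lowest Il1rn of its group at -2.98, had a sum of 86.4, above every control. None of the 5 mast cell markers was past the threshold. The brown adipocyte markers summed to 6.03 to 10.8 in controls and 48.6 to 141 in the arrays labelled Adipo-Pgam1 KO, and 3 of the 4 tested rose. The skeletal muscle sums were 3.28 to 24.3 in controls and 29.7 to 58.1 in the arrays labelled Adipo-Pgam1 KO, although none of the 4 markers tested passed. The part of these markers in the Il1rn result was not tested.

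Of the genes of the 4 pathway lists, 61 were tested in gWAT and 9 passed, which is 14.8%, beside 17.8% of all genes tested. Of the receptors and binding proteins, 1 rose and 2 fell among 15 tested. Il18bp, the soluble inhibitor of Il18, rose by 1.08 on the log2 scale (SE 0.30, limma, adjusted p = 0.0413), Il15ra fell by 0.99 (SE 0.26, limma, adjusted p = 0.0348) and Il1rl1 fell by 0.80 (SE 0.19, limma, adjusted p = 0.0232). Of 14 inflammasome genes tested, 2 rose and none fell, which were Ninj1, a mediator of plasma membrane rupture, with 0.56 (limma, adjusted p = 0.0261) and Casp8 with 0.49 (limma, adjusted p = 0.0277). Among the signal transducers, 2 rose and 1 fell of 24, with Ikbkg (NEMO) at 1.43 (limma, adjusted p = 0.0168) and Ikbkb at -0.44 (limma, adjusted p = 0.0410). Of 8 further cytokines, Il34 was the 1 past the threshold, and it fell by 1.27 (SE 0.20, limma, adjusted p = 0.00632).

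The difference between the tissues was tested as an interaction over all 16 arrays. For Casp1, Il18 and Il33 the change was lower in gWAT than in BAT, and no member had a higher change in gWAT that passed. Under some alternatives the brighter Tnf probe did, at most by 2.36, when the slide entered as a fixed block (adjusted p = 0.00199). Il18 differed by -3.01 on the log2 scale (SE 0.30, limma, adjusted p = 8.90e-06) and Casp1 by -2.39 (SE 0.29, limma, adjusted p = 2.81e-05). Il33 differed by -2.70 (SE 0.75, limma, adjusted p = 0.00864), but by -1.92 with the slide as a block (adjusted p = 0.280). Of all 14820 genes tested, 48.3% were past the threshold, with 27.4% showing a higher and 21.0% a lower change in gWAT. Of the 8 members tested, 3 showed a lower one.

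Il1rn, which rose in both tissues by label, differed by 0.30 (SE 0.88, limma, adjusted p = 0.800), and the sign turned under some alternatives. No interaction is given for Il10 and Il1b, which were mostly at background in gWAT. The differences of Tnf (0.67, adjusted p = 0.210) and Il15 (-0.37, adjusted p = 0.448) did not pass in limma. Among the pathway lists, 10 of 15 receptor genes and 8 of 14 inflammasome genes had a lower change in gWAT, with Il1rl1 at -3.38 (limma, adjusted p = 6.95e-06) and Casp4 at -3.44 (limma, adjusted p = 5.61e-05). None of the receptor genes and 1 inflammasome gene, Nlrp1a at 0.67 (limma, adjusted p = 0.00869), had a higher change. Of the 24 NF-kB and signal transducer genes, 7 had a lower and 3 a higher change, and of 9 further cytokines 6 had a lower one. Over the 4 lists, 56.5% of 62 genes were past the threshold, beside 48.3% of all genes tested.

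**Figure D5:**
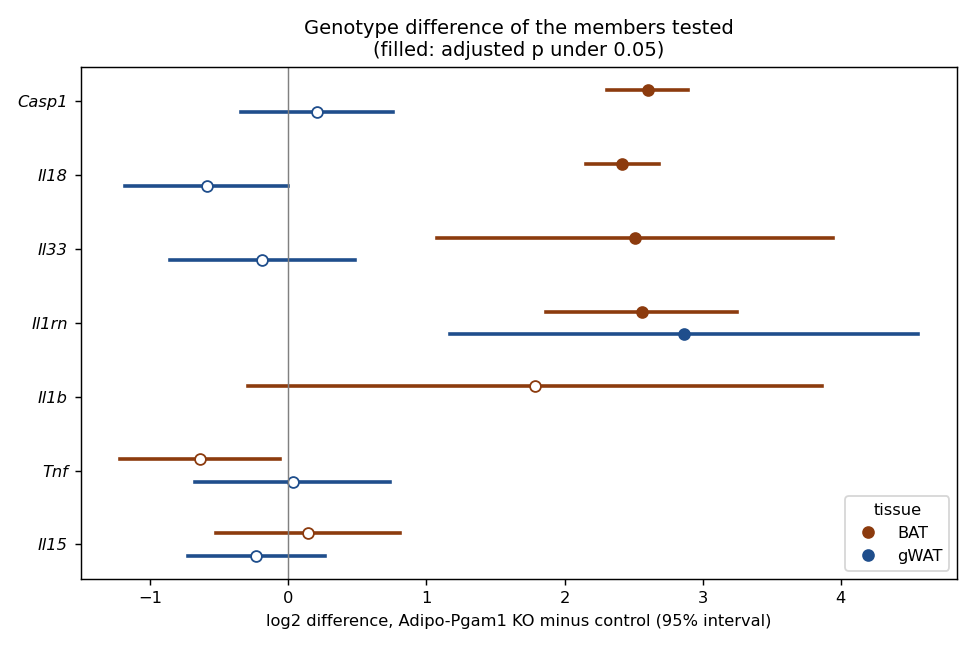
Log2 difference between Adipo-Pgam1 KO and control arrays (horizontal axis) with 95% intervals from limma for each gene tested, in BAT and in gWAT arrays by label, filled where the adjusted p was under 0.05. Il10 is left out because its BAT controls were not well above background. Casp1 and Il18 lie at 2.60 and 2.42 in BAT and near 0 or below it in gWAT, and Il1rn is filled in both tissues.

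Among control mice, BAT and gWAT already differed in these genes. Il18, Il33 and Casp1 were lower in BAT than in gWAT, Il1rn and Tnf were higher in BAT, and Il15 did not pass. Il18 was lower by a log2 difference of -3.53 (SE 0.17, limma, adjusted p = 1.20e-06), Il33 by -3.46 (SE 0.24, adjusted p = 6.44e-06) and Casp1 by -2.48 (SE 0.18, adjusted p = 7.77e-06), with no overlap between the depots in any of the 3, nor in Il1rn and Tnf, as in 60.8% of all genes tested. Il1rn was higher in BAT by 1.98 (SE 0.40, limma, adjusted p = 0.00251), where all 4 BAT but 2 of 4 gWAT control arrays were well above background. The brighter Tnf probe was higher in BAT by 1.21 (SE 0.36, limma, adjusted p = 0.0169), but it did not pass under spike-in scaling (0.98, adjusted p = 0.103), nor did the mean of both probes (0.36, adjusted p = 0.570). Its dimmer probe was not detected in BAT controls. For Il15, the difference was 0.24 (SE 0.29, limma, adjusted p = 0.481), but 1.07 with the slide as a fixed block (adjusted p = 0.0424). Of all 14304 genes tested, 64.7% passed, 29.3% lower and 35.4% higher in BAT, and the median of the 6 members tested was -1.12, beside 0.10 for all genes.

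Ordered by their means, the 4 groups of Casp1 ran from BAT controls at -0.79 ± 0.23 (SD, n = 4) through gWAT controls at 1.70 ± 0.30 and BAT of Adipo-Pgam1 KO mice at 1.82 ± 0.10 to the gWAT arrays labelled Adipo-Pgam1 KO at 1.91 ± 0.45. The upper 3 groups overlapped, so BAT of Adipo-Pgam1 KO mice reached the range of gWAT for Casp1. For Il18, BAT of Adipo-Pgam1 KO mice at -0.08 ± 0.15 stayed below gWAT controls at 1.03 ± 0.31 with no overlap, but overlapped the gWAT arrays labelled Adipo-Pgam1 KO at 0.44 ± 0.49. For Il1rn, the order was different, with gWAT controls lowest at -4.65 ± 0.92, then BAT controls at -2.67 ± 0.20, the gWAT arrays labelled Adipo-Pgam1 KO at -1.79 ± 1.53 and BAT of Adipo-Pgam1 KO mice highest at -0.11 ± 0.68. The middle pair of Il1rn overlapped, as did the upper pair.

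Cell type markers also differed between the depots of control mice, in both directions. The macrophage sums were 26.7 to 36.5 in BAT controls and 61.4 to 83.2 in gWAT controls, and 7 of 8 markers were lower in BAT. All 6 mesothelial markers were lower in BAT, where Msln, Upk3b, Upk1b, Krt19 and Wt1 were not well above background on any control array, and their sums were 0.263 to 0.569 in BAT controls and 10.4 to 32.0 in gWAT controls. Il1rn and Tnf, higher in BAT, went the other way from the macrophage and mesothelial lists. Of the other lists, 4 of 6 fibroblast and progenitor and 3 of 5 mast cell markers were lower in BAT. All 6 brown adipocyte and 2 of 4 endothelial markers were higher. The adipocyte, dendritic cell, T cell, neutrophil and skeletal muscle lists had markers past the threshold in both directions. The part of these markers in the depot differences was not tested. Of the 13 inflammasome genes tested, 9 were lower and 2 higher in BAT controls, with Casp4 at -2.26 (SE 0.38, limma, adjusted p = 8.38e-04) and Nlrp1a at 1.03 (SE 0.14, limma, adjusted p = 2.77e-04). Of the 15 receptor genes, 10 were lower, led by Il1rl1 at -2.62 (SE 0.23, limma, adjusted p = 2.11e-05), and 1 was higher, which was Il15ra at 1.07 (SE 0.30, limma, adjusted p = 0.0127).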

How the data were processed

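Total RNA of BAT and gWAT was hybridized to 1-colour Agilent arrays, 16 in all. The authors deposited each array's scanner intensity, background-subtracted by Agilent Feature Extraction 10.7.1.1 per the submitters' processing notes, and a table of normalized intensity, which differed from the scaling used here by at most 0.00504 in the median on the log2 scale. Here, spots with irregular signal were dropped, spots of a probe were averaged, and the log2 intensity was taken relative to each array's 75th percentile (401.3 to 916.2 in intensity units). The scanner flagged 50.0% to 62.2% of probes as well above background on an array. Precision is limited by the 4 arrays of each group. Of 35886 probes with a RefSeq accession, 91.9% were named. Tested genes were those detected in this sense on all 4 arrays of 1 or more of the groups in the fit. Groups were compared with limma 3.58.1 in R 4.3.3, with Benjamini-Hochberg adjustment over all genes tested and a threshold of 0.05, and single genes with a two-sided exact permutation test. The fit was tested on simulated data. BAT lay on slides 1 and 2 and gWAT on slides 2 and 3, with a single control on the slide of each set of Adipo-Pgam1 KO arrays. Slides 1 and 2 were scanned on day 1 and slide 3 on day 2. All 4 gWAT arrays labelled Adipo-Pgam1 KO and 1 gWAT control were thus scanned on another day than the other 3 gWAT controls. Alternatives were quantile normalization, normexp background correction, spike-in, Actb and Rplp0 or median scaling, the deposited normalized values, the mean of all probes, other filters, slide and replicate blocks, 1 fit over all arrays, the t-test of the methods, and leaving out each array.

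The 10 genes, the pathway lists and the marker lists were chosen with earlier results of these data known. The genes named were all 10 members, Pgam1, and from each pathway list the genes with the highest and lowest change among those past the threshold and detected on every array of both groups, with others added after their values were seen. Between genotypes, the endothelial, erythroid, epididymis and B cell lists had no gene past the threshold in either tissue. Only 1 of 4 B cell and 1 of 6 epididymis markers had enough signal to be tested. Of the T cell markers, 2 rose in BAT and none passed in gWAT.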

Additional observations from a re-analysis of the deposited data

Results flagged for a closer look

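Among the 40 sets of 4 arrays examined, 1 for each gene and group, 2 held an array that stood apart from the other 3 by Dixon's criterion, and chance gives about 1 in 20. For Il6, BAT replicate 3 of Adipo-Pgam1 KO mice read -5.50, where the other 3 arrays read -1.12 or more. For Il10, gWAT control replicate 1 read -5.36, below detection like the other 3 arrays of its group.

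The genotype difference of 3 genes was unlike in the tissues by the interaction test in limma, with gWAT minus BAT differences of -2.39 for Casp1, -3.01 for Il18 and -2.70 for Il33. The directions in gWAT rest on the labels of arrays in which Pgam1 was higher.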

How the results depend on the processing

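Casp1, Il18 and Il1rn in BAT, the interactions of Casp1 and Il18, and the depot differences of Casp1, Il18, Il33 and Il1rn kept their direction and their side of the threshold under all alternatives run. In BAT, Casp1 ranged from 2.01 to 3.14, Il18 from 1.69 to 2.96 and Il1rn from 1.32 to 3.10. Over all genes in gWAT, 2525 passed in limma, but 5094 under spike-in scaling, 1384 with median centring, 1138 with no filter on dim probes, 184 with the slide as a fixed block, 4040 in 1 fit over 16 arrays, and 4673 (unadjusted) or 1618 (Benjamini-Hochberg) by the methods' t-test. Leaving out single arrays gave 1143 to 3237. The slide as a fixed block took the interaction from 7162 to 3265 genes. Of the members in gWAT, 0 passed under normexp, with no filter, with a stricter filter, with the slide as a fixed block or by the methods' t-test after Benjamini-Hochberg, 2 passed in 1 fit over 16 arrays, and 0 to 1 when single arrays were left out. In the depot comparison, 3 rather than 5 passed with the stricter filter, which left out Il1rn and Tnf. The causes were not tested, other than that the slide block rests on 1 control and the filters change which genes are tested.

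Signs turned as follows. In BAT, Tnf was 0.94 with the mean of its probes and 2.52 with its other probe, an alternative chosen after seeing the data, and Il15 was -0.45 under Actb and Rplp0 scaling, -0.62 with the slide as a fixed block, -0.067 with its other probe, and -0.12 to 0.40 with single arrays left out. The brighter Tnf probe passed as lower in BAT under normexp (-0.62), Actb and Rplp0 scaling (-1.23) and the slide as a fixed block (-1.30), and narrowly with the stricter filter (adjusted p = 0.0482), the slide as a random block (adjusted p = 0.0398), and without control replicate 3 (adjusted p = 0.0401) or Adipo-Pgam1 KO replicate 4 (adjusted p = 0.0415). In gWAT, Tnf was -0.016 under normexp, -0.027 under Actb and Rplp0 scaling and -0.31 to 0.19 without single arrays. Il33 was 0.26 under spike-in scaling and 0.41 with the slide block, Il15 was 0.21 under spike-in scaling, and Casp1 was -0.058 with the slide block and -0.0087 to 0.33 without single arrays. For the interaction, Tnf was -0.68 with the mean of its probes and -2.03 with the other probe, but passed as higher at 0.61 under normexp, 1.20 under Actb and Rplp0 scaling and 2.36 with the slide as a fixed block, Il1rn was -0.27 under normexp, -0.77 with the slide block and -0.44 to 0.70 without single arrays, and Il15 was 0.16 under Actb and Rplp0 scaling and 0.22 with the slide block. Between depots, Il15 was -0.013 to 0.50 without single arrays and passed at 1.07 with the slide as a fixed block, and Tnf did not pass under spike-in scaling (0.98) or with the mean of its probes (0.36). Spike-in scaling moved the median of all genes to 0.46 in BAT and 0.49 in gWAT, and Actb and Rplp0 scaling moved it to -0.67 in BAT. Of the genes past the threshold, the higher ones made up 44.8% in BAT, against 79.7% and 17.7% under these scalings, and 56.0% in gWAT, against 95.3% with spike-ins, 71.0% with median centring and 35.9% with the slide block. For the interaction it was 56.6% against 83.7% under Actb and Rplp0 scaling, and between depots 54.8% against 70.9% there and 41.9% with spike-ins.

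The replicate numbers were not taken to pair the arrays, since the correlation of same-numbered deviations ranged from 0.009 to 0.19 in BAT, from -0.159 to 0.55 in gWAT and from -0.033 to 0.182 between the depots of controls, where it was above 0.1 for 3 of 4 numbers. Replicate 4 of Adipo-Pgam1 KO was labelled 14 weeks in both tissues, and whether mice were shared is not known here. With the replicate number as a block, 1087 genes passed in gWAT and 8610 in BAT. In that fit the brighter Tnf probe passed in BAT (adjusted p = 0.00783) and Tnf between depots did not (adjusted p = 0.0532), and apart from the interaction of Il10, which rests on background values, no other call of a member changed. Dim signal limits Il1b, Il6, Il10 and Nlrp3 in gWAT.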
